A study of Rattus norvegicus with 6 samples.

Results

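The genes described here are 9 growth genes known to be imprinted in rodents: Igf2, H19, Igf2r, Dlk1, Peg3, Mest, Cdkn1c, Grb10 and Plagl1. They were picked by gene name out of the 18077 rows of each count table, and where a name repeats the row with the highest mean count is meant, though no member's name repeats. A row was found for 8 of the 9, and Dlk1 is not analysed here. The names were proposed with results of the same comparison in view, so the members' own levels and changes are a description and are given without p-values.

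RNA of cultures labelled neonatal rat cardiomyocytes was sequenced after polyA selection, in 2 groups of 3 libraries. The cells came from hearts of pups aged 1 to 3 days, were plated in a way that reduces fibroblasts, and were grown with serum and BrdU. All wells were given the saturated fatty acid palmitic acid (500 µM, 24 h) and an adenovirus, and RNA was taken after 48 h. The control libraries are titled Ad-GFP (treatment label WT) and the others Ad-RNF128 (treatment label RNF128 overexpression), while the treatment text also names the gene as RNF28. No label names separate animals, cultures, a promoter in the vector or a batch, so errors measure only the spread between these libraries, which may be technical. The question of the design is which genes change when RNF128, a ubiquitin ligase, is overexpressed.

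Imprinted genes are read from only 1 of the 2 parental copies, and many of them set how much a fetus grows. Igf2, read from the paternal copy, encodes a growth factor, while Igf2r, Grb10, Cdkn1c and H19, read from the maternal copy in most rodent tissues, restrain growth. Igf2 and H19 are neighbours that share enhancers, and the insulator protein CTCF, bound at a control region upstream of H19 on the maternal copy, keeps those enhancers from Igf2. The tables do not separate the parental copies, so only the total of both was measured.

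Library totals ran from 16352843 to 21708973 counts. Rat Rnf128 had from 0 to 2 counts per library labelled Ad-GFP and from 1 to 3 per library labelled Ad-RNF128. Its counts therefore do not bear out the label. Rnf157, another ubiquitin ligase gene, was at 22.3 to 40.4 CPM (counts per 1000000 counts of the library) in the libraries labelled Ad-GFP and at 1923 to 2553 CPM in those labelled Ad-RNF128. Which gene was overexpressed is not settled by these values, and every direction below compares libraries by their labels only. Ad-GFP replicate 1 stood apart, with 3551 rows at 0 counts where the others had 1190 to 2288, and Spearman correlations of at most 0.818 with any of them. Fits were run both with and without it, and its level of each member is given separately. Irf7, a regulator of interferon genes, was at 3775 CPM in that library, at 14.5 and 13.97 CPM in the other controls and at 1853 to 2101 CPM in the libraries labelled Ad-RNF128, and its part in the results was not tested. The cell type label was checked against 13 cardiomyocyte markers, which stood at very different levels. The atrial peptide gene Nppa, the troponin gene Tnni3 and the myosin light chain gene Myl2 were under 8 CPM in every library. All of them were lowest in Ad-RNF128 replicate 3, at 0, 0.156 and 0.312 CPM. The cardiac myosin gene Myh6 was at 10.8 to 16.02 CPM in 5 libraries and at 0.104 CPM in Ad-RNF128 replicate 3. In the latter library 9 of the 13 markers were under 1 CPM, against 2 or 3 in each of the others, and the cause was not tested. The cardiac transcription factor genes Nkx2-5 and Gata4 were at 13.7 to 81.9 CPM and 12.05 to 28.1 CPM, and the troponin gene Tnnt2 reached 350.4 CPM in a control. Among fibroblast markers the collagen genes were abundant, with Col1a1 at 1100 to 18266 CPM, while Pdgfra, Dcn, Lum and Tcf21 were at most 2.86 CPM. Thy1 was at 224 to 305 CPM and Fbln1 at 3.38 to 5.99 CPM. Postn was at 0.978 CPM in Ad-GFP replicate 1 and at 136.6 to 347.9 CPM in the other libraries. Among skeletal myoblast markers Myod1, a myogenic factor gene, was at 25.3 to 63.3 CPM over the 6 libraries, above Myh6 in each of them. Myog, another such gene, was at 3.85 to 35.4 CPM, while Mymx, Chrna1 and Chrnd were at most 0.609 CPM. These levels do not settle the cell type, and the cultures are named by their label.

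Sequences of the Igf2-H19 domain and of the promoters of the members with the larger changes are shown first, because the results turn on these genes. In the rat annotation of RefSeq (build GRCr8), H19 contains the hairpin of miR-675 and Igf2 that of miR-483, microRNAs that are cut from the transcripts of these hosts. The tables count gene reads and hold no measurement of either microRNA. Their mature sequences follow, with the seed (bases 2 to 8) in capitals, and the 4 seeds all differ.
rno-miR-675-5p: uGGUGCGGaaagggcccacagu
rno-miR-675-3p: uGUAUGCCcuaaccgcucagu
rno-miR-483-5p: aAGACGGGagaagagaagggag
rno-miR-483-3p: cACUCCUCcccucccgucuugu

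RefSeq promoters were matched by symbol for 7 of the 9 members, all but H19 and Cdkn1c. The 250 bases before the start are printed 5′ to 3′ for Igf2, which has 2 annotated starts, and for Plagl1 and Grb10. They lie, in build GRCr8, at chr1:207253981-207254230 on the minus strand for the first Igf2 start and at chr1:207250476-207250725 on the minus strand for the second. The Plagl1 stretch is at chr1:9297214-9297463 on the plus strand and the Grb10 stretch at chr14:90816388-90816637 on the minus strand. Capitals mark matches, on either strand, to the motifs listed after the sequences.
Igf2, first start: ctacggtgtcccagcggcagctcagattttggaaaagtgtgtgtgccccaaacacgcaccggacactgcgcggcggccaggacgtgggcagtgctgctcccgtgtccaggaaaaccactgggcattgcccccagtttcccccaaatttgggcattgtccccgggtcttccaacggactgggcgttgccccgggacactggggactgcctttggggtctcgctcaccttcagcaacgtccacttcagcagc
Igf2, second start: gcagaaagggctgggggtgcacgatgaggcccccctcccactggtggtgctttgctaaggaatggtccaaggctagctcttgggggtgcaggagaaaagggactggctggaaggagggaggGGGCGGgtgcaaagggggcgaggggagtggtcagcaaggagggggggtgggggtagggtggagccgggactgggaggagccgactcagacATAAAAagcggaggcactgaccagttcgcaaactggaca
Plagl1: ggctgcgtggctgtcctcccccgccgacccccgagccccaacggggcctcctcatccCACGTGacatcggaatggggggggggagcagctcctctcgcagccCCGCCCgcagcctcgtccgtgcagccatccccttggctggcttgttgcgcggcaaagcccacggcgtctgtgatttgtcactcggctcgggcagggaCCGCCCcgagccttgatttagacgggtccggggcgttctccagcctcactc
Grb10: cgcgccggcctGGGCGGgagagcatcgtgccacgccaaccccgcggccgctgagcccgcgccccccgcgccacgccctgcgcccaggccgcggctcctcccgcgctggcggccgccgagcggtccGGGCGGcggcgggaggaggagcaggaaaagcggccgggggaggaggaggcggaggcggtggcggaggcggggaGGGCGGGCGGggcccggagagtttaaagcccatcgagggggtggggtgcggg

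The motifs searched were the GC box GGGCGG of the Sp factors, a TATA-like run ATAAAA, the E-box CACGTG, the GC palindrome GGGGCCCC, which lies within the site known for PLAGL1, and the interferon response core, in which GAAA is followed by any 2 bases and a second GAAA. Overlapping matches were counted. Among 33465 RefSeq promoter stretches of the same length, 30.5% held the GC box, 18.6% the TATA-like run, 5.59% the E-box, 0.753% the palindrome and 3.41% the interferon core. The first Igf2 stretch held none of the 5, and the second held 1 GC box and 1 TATA-like run. Grb10 had 4 GC boxes and Plagl1 had 2, plus 1 E-box. Igf2r, not printed, had 2 GC boxes and 2 E-boxes, and Peg3 held the palindrome once. No member's stretch held the interferon core. CpG pairs numbered 15 and 7 in the first and second Igf2 stretch, 23 at Plagl1 and 38 at Grb10, against a median of 5 over all stretches. The second Igf2 stretch was thus near the middle, at the 54.8th percentile, and Grb10 at the 98.3rd. Gene counts do not show which Igf2 start was used.

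In the comparison of the 3 libraries labelled Ad-RNF128 with Ad-GFP replicates 2 and 3, 7 members had enough reads to be tested and all 7 fell. The fit, edgeR's quasi-likelihood test over all genes with an adjusted p threshold of 0.05, called 56.9% of the 13173 genes tested, and 28.0% as lower. Since this contrast helped to choose the members, nothing is read from their count. Of the 7, 5 fell by at least 2-fold, as did 3.79% of all genes tested. All 7 had each library labelled Ad-RNF128 below both of these controls, as did 23.6% of all genes tested, and nothing is read from this either. Their median log2 change was -1.68, beside 0.01 over all genes tested. Over all 6 libraries the same test called 0 of the 7, and 0% of 12863 genes. There 2 members had an unadjusted p under 0.05 and DESeq2 called 2, Igf2 and H19 in both cases. Of the 12863 genes, 742 had an unadjusted p under 0.05 with edgeR, and DESeq2 called 244 higher and 142 lower. Nothing is read from these member counts either.

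**Figure D1:**
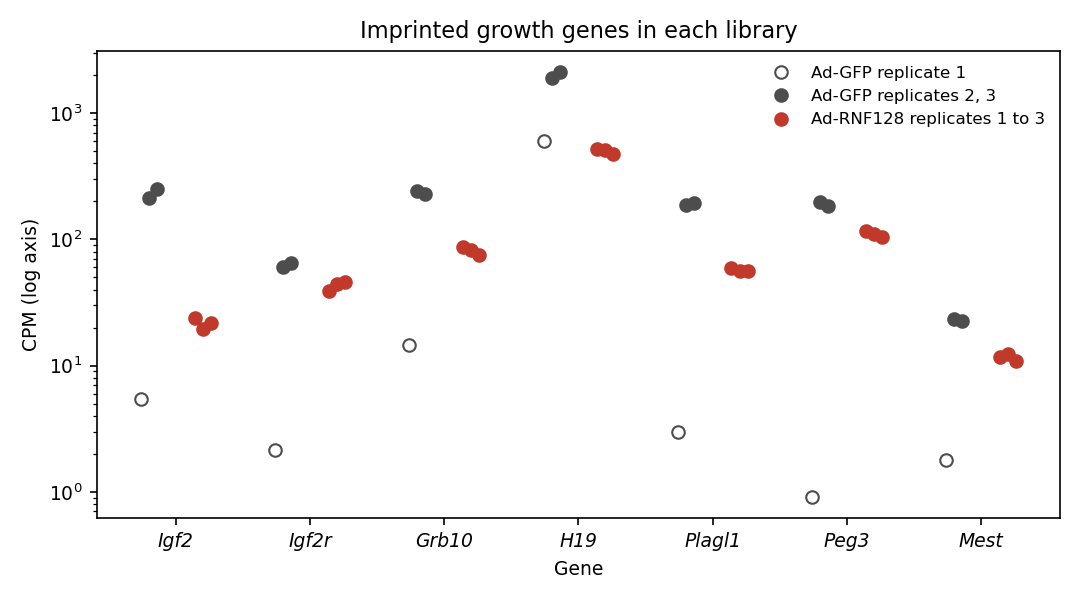
CPM (log axis) of the 7 tested members in each library, 1 point per library. For each gene the 3 libraries labelled Ad-RNF128 (red) lie below Ad-GFP replicates 2 and 3 (filled grey), and Ad-GFP replicate 1 (open) lies lowest for all but H19. Of all genes tested, 23.6% are separated in that way. Levels of different genes are not per length and should not be compared.

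The growth factor gene came first in size. Igf2 (ENSRNOG00000020369) was at 214 and 249.6 CPM in Ad-GFP replicates 2 and 3 and at 23.7, 19.6 and 21.8 CPM in the libraries labelled Ad-RNF128. The latter mean was 21.7 ± 2.08 CPM (SD, n = 3), a level 10.7-fold lower. The edgeR log2 change was -3.58 ± 0.09 (SE), the 14th lowest of all genes tested. In Ad-GFP replicate 1 Igf2 had 89 counts, or 5.44 CPM with a 95% counting interval of 4.37 to 6.70. That control library was therefore lower than all 3 libraries labelled Ad-RNF128, and with it the groups overlap. Over all 6 libraries the log2 change was -3.03 ± 1.04 and did not pass. Reads of an antisense or overlapping transcript cannot be told from those of Igf2, because no source names the strand setting of the counting. In bulk RNA, fewer cells that make a transcript and less of it per cell cannot be told apart, here or for any gene below.

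The receptor and adaptor that restrain IGF signalling also fell, by unequal amounts. Igf2r (ENSRNOG00000014997), which carries IGF2 to the lysosome for breakdown, was at 60.9 and 64.6 CPM in Ad-GFP replicates 2 and 3 and at 38.8, 44.3 and 45.7 CPM in the libraries labelled Ad-RNF128. Those groups lie apart, but by 1.46-fold only, the smallest ratio of the 7, with a log2 change of -0.70 ± 0.08. Ad-GFP replicate 1 held 2.14 CPM (35 counts). With it included the log2 change was -0.18 ± 0.87, and it turned to 0.013 when libraries were scaled by their totals alone. Grb10 (ENSRNOG00000004290), an adaptor that binds the insulin and IGF1 receptors and dampens their signal, was at 240.0 and 229 CPM in the same controls and at 86.6, 82.7 and 75.5 CPM in the libraries labelled Ad-RNF128. Its level was 2.87-fold lower, with a log2 change of -1.68 ± 0.07. Ad-GFP replicate 1 held 14.6 CPM, below every other library, and over all 6 libraries the log2 change was -1.20 ± 0.73.

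The cell cycle inhibitor Cdkn1c (ENSRNOG00000059500), also called p57, had next to no reads. The controls labelled Ad-GFP 1, 2 and 3 held 0, 1 and 0 counts of it, and the libraries labelled Ad-RNF128 held 1, 3 and 1. These sums differed 4.80-fold, the counting interval running from 0.537 to 227, so neither a rise nor a fall was detectable at this depth. A library without a read allows up to 0.183 CPM in Ad-GFP replicate 1 and 0.141 CPM in replicate 3, on a floor of 3 counts. Cdkn1c did not pass the filter on low counts and is in none of the counts of tested members.

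H19 (ENSRNOG00000062678), a noncoding RNA abundant in fetal tissue and in myoblasts, was among the 33 rows with the most reads in Ad-GFP replicates 2 and 3, at 1905 and 2118 CPM. It was at 517, 511 and 477 CPM in the libraries labelled Ad-RNF128, a mean of 502 ± 21.3 CPM (SD, n = 3). The level was 4.01-fold lower and the log2 change -2.16 ± 0.07. Ad-GFP replicate 1 held 607 CPM, with a counting interval of 595 to 619. H19 was thus the single tested member whose 3 control libraries all lay above the libraries labelled Ad-RNF128, as did those of 3.59% of all genes tested over 6 libraries. Its log2 change over all 6 libraries was -2.01 ± 0.36.

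H19 and Igf2 did not keep their proportion. Ad-GFP replicates 2 and 3 held 8.91 and 8.48 counts of H19 for each count of Igf2, and the libraries labelled Ad-RNF128 held 21.8, 26.1 and 21.9. The ratio was therefore higher in the latter, with no overlap, as Igf2 was lower by the larger factor. Ad-GFP replicate 1 held 112 counts of H19 per count of Igf2, outside the range of both sets. Such a ratio within a library does not depend on the scaling between libraries. The proportion of Igf2r to Igf2 went the same way, at 0.285 and 0.259 in those 2 controls and 1.63, 2.26 and 2.10 in the libraries labelled Ad-RNF128. Ad-GFP replicate 1 was at 0.393, from 35 and 89 counts. Unlike its ratio of H19 to Igf2, this lay below every library labelled Ad-RNF128, and above both other controls.

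**Figure D2:**
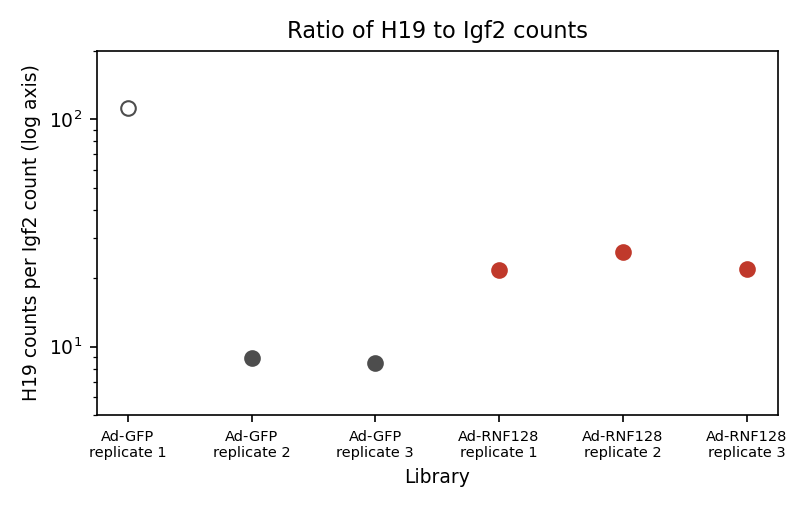
Counts of H19 per count of Igf2 in each library (log axis, 1 point per library). Ad-GFP replicates 2 and 3 sit at 8.91 and 8.48, the 3 libraries labelled Ad-RNF128 between 21.8 and 26.1, and Ad-GFP replicate 1 (open) at 112.

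The paternally expressed regulators fell as well. Plagl1 (ENSRNOG00000025587), a zinc finger transcription factor known to act on other imprinted genes, was at 188 and 196 CPM in Ad-GFP replicates 2 and 3 and at 58.8, 56.5 and 56.7 CPM in the libraries labelled Ad-RNF128. The 3 latter values were close together (57.3 ± 1.30 CPM, SD, n = 3), and 3.34-fold below the 2 controls, with a log2 change of -1.90 ± 0.07. Peg3 (ENSRNOG00000014791), another zinc finger protein gene, was at 199 and 184 CPM in those controls and at 117, 111 and 105 CPM in the libraries labelled Ad-RNF128. Its log2 change was -0.94 ± 0.07. Mest (ENSRNOG00000048088), which encodes a protein of the hydrolase fold family, was at 23.4 and 22.5 CPM and at 11.8, 12.4 and 10.9 CPM, with a log2 change of -1.13 ± 0.10.

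Ad-GFP replicate 1 went below all other libraries for these 3 genes too. It held Plagl1 at 3.00 CPM, Peg3 at 0.917 CPM and Mest at 1.77 CPM, from 49, 15 and 29 counts. In CPM, Peg3 was 209-fold lower in it than in the mean of replicates 2 and 3, against 3.32-fold for H19. The gap between this library and the other controls was thus far from uniform over the members. Its TMM factor of 0.47, against 1.1 and 1.08 in those controls, makes both gaps smaller on the scale of the log2 changes. Over all 6 libraries the log2 changes were -1.35 ± 1.06 for Plagl1, -0.37 ± 1.27 for Peg3 and -0.68 ± 0.67 for Mest, and none passed. Peg3 had a log2 change above 0 without Ad-GFP replicate 2 (0.074) and without Ad-GFP replicate 3 (0.0085).

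**Figure D3:**
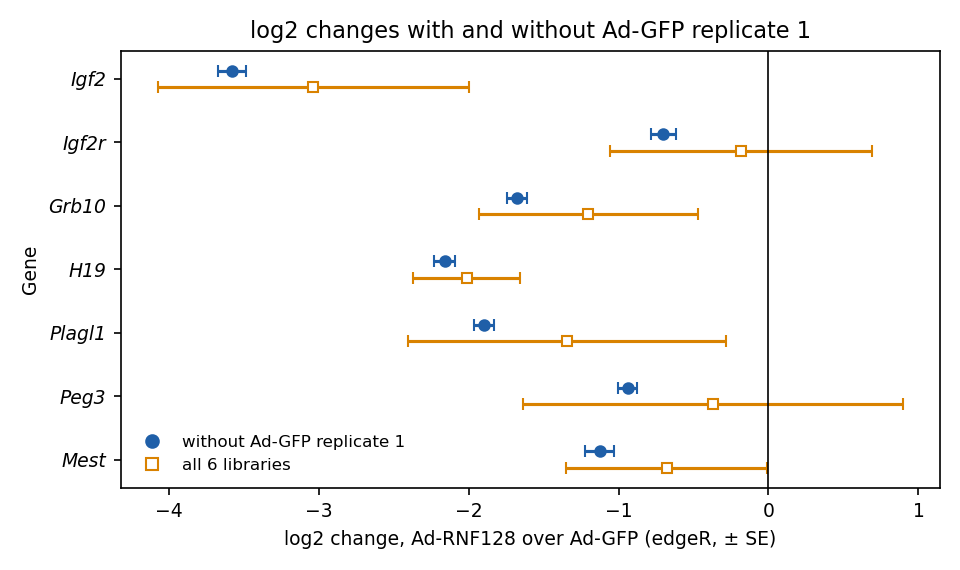
edgeR log2 change of each tested member, with its SE as the bar, without Ad-GFP replicate 1 (filled circles) and over all 6 libraries (open squares). The former run from -3.58 for Igf2 to -0.70 for Igf2r with narrow bars, and the latter have bars of 0.36 (H19) to 1.27 (Peg3).

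Relative to all genes tested, the members were spread along the lower side. H19 ranked 73rd from the lowest log2 change, Plagl1 111th, Grb10 158th, Mest 407th, Peg3 581st and Igf2r 1051st of 13173. In the 10 alternatives run without Ad-GFP replicate 1 the log2 changes ranged from -3.71 to -3.42 for Igf2 and from -0.77 to -0.55 for Igf2r.

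**Figure D4:**
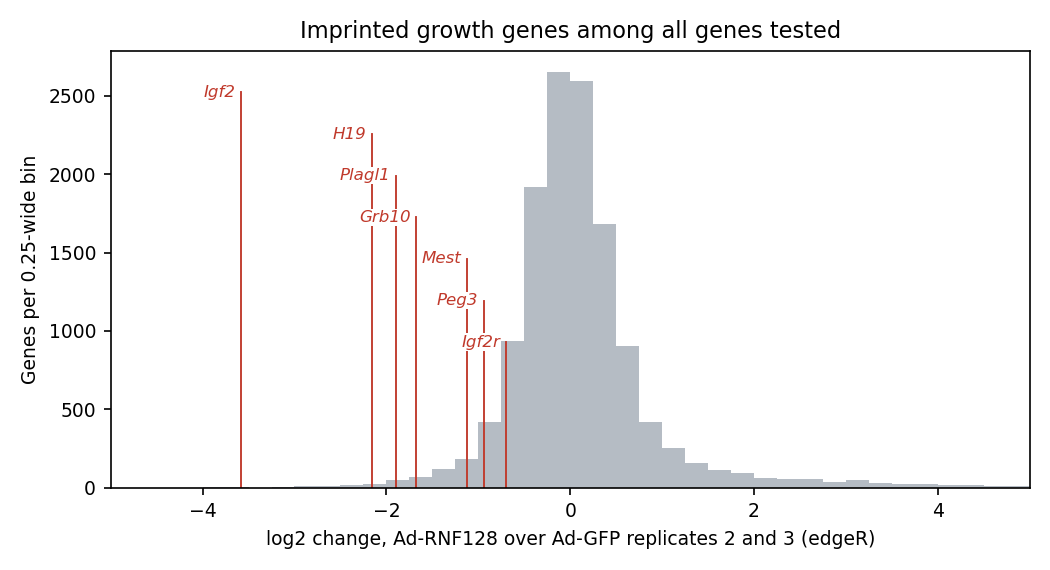
Histogram of the log2 changes of the genes tested without Ad-GFP replicate 1 (bins 0.25 wide, axis limited to the range from -5 to 5), with the 7 members as red lines whose heights carry no value. Igf2 stands far to the left at -3.58 and Igf2r at -0.70 reaches the flank of the main body.

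Genes with the pattern most like that of Igf2 over the 6 libraries were found by the mean absolute difference of centred log2(CPM + 1) values, among 10254 genes with a mean of at least 5 CPM. They were the cardiac troponin gene Tnnt2 (difference 0.280), the fast skeletal myosin gene Myh2 (0.285) and Fras1 (0.353), which encodes a basement membrane protein. Tnnt2 was at 13.3 CPM in Ad-GFP replicate 1, at 342 and 350.4 CPM in replicates 2 and 3, and at 57.4, 42.3 and 34.0 CPM in the libraries labelled Ad-RNF128. For H19 the closest were the growth factor gene Pdgfb (0.101), the sterol synthesis gene Lss (0.126) and the matricellular gene Ccn5 (0.154). Pdgfb was at 7.71 CPM in Ad-GFP replicate 1, at 32.1 and 35.4 CPM in replicates 2 and 3, and at 7.25, 6.22 and 6.70 CPM in the libraries labelled Ad-RNF128.

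Markers of other cell types moved in the same comparison, in which 28.0% of all genes were called lower and 28.9% higher. Of 10 fibroblast markers 9 were tested without Ad-GFP replicate 1, and 5 fell and 0 rose (1 higher with an unadjusted p under 0.05, Thy1 at 0.17 ± 0.07, and 0 with DESeq2). Their summed level was 38420 and 40050 CPM in Ad-GFP replicates 2 and 3, 10540 to 11450 CPM in the libraries labelled Ad-RNF128 and 3249 CPM in Ad-GFP replicate 1. Collagen genes made up most of it, with Col1a1 at 17690 and 18266 CPM and Col1a2 at 16876 and 17838 CPM in Ad-GFP replicates 2 and 3. Tcf21, a defining marker, was at 0 in 4 libraries and at most 0.0554 CPM. Of 14 skeletal myoblast markers 8 were tested, and 5 fell, among them the myogenic factor genes Myod1 (-0.92 ± 0.09) and Myog (-2.61 ± 0.13), while Des (2.91 ± 0.09) and Mymk (1.26 ± 0.21) rose. The log2 changes of Des and Mymk turned with Ad-GFP replicate 1 included (-0.50 and -0.96). That control held Des at 105.6 CPM and Mymk at 8.93 CPM, above every other library. In CPM the libraries labelled Ad-RNF128 still had the higher mean, at 1.68 and 1.11 times that of all 3 controls. The log2 changes also carry the TMM scaling given above, with a factor of 0.47 for that control. The summed skeletal level was 119.2 to 128.6 CPM in all libraries but Ad-GFP replicate 1, at 186.8 CPM. This even sum joins opposite moves and does not show that these markers stayed level. Des was at 7.70 and 8.63 CPM in Ad-GFP replicates 2 and 3 and at 66.7 to 69.9 CPM in the libraries labelled Ad-RNF128. Myod1 was at 50.5 CPM in both of those controls and at 25.3 to 32.7 CPM in the others, and Myog at 33.0 and 35.4 CPM and at 4.88 to 7.43 CPM. Of 11 cardiomyocyte markers tested 1 fell, Tnnt2 (-3.12 ± 0.13), 1 rose, Gata4 (0.61 ± 0.09, but -0.65 with all 6 libraries), and 9 did not pass. The summed level of these markers was 412.4 and 412.8 CPM in Ad-GFP replicates 2 and 3, 76.1 to 142.6 CPM in the libraries labelled Ad-RNF128 and 173.1 CPM in Ad-GFP replicate 1. Tnnt2 alone was at 342 and 350.4 CPM in Ad-GFP replicates 2 and 3 and at 34.0 to 57.4 CPM in the libraries labelled Ad-RNF128, so the sum mostly follows this gene. Macrophage markers summed to 1.04 to 1.33 CPM in the controls and 3.48 to 4.56 CPM in the libraries labelled Ad-RNF128, and 2 of 3 tested rose (1 with DESeq2), Csf1r (2.24 ± 0.33, edgeR adjusted p = 4.64e-05) and Cd68 (1.41 ± 0.45), while the leukocyte marker Ptprc was at 0 in 4 libraries and at most 0.156 CPM. Endothelial markers summed to 4.97 to 6.73 CPM and 7.01 to 8.19 CPM, and both tested, Cdh5 and Vwf, rose (0 with DESeq2), but Pecam1 was at most 0.276 CPM. Smooth muscle markers summed to 4828 to 6079 CPM in the controls and 5184 to 5770 CPM in the others, with 2 of 6 higher, among them Myh11 (1.57 ± 0.11, edgeR adjusted p = 1.61e-08), and 3 lower. The part of these cell types in the members' changes was not tested.

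Other imprinted genes went both ways. Of 54 genes known as imprinted in mice, 31 had a row and 24 were tested without Ad-GFP replicate 1, where 6 rose, 10 fell and 8 did not pass, against 56.9% called over all genes. With library totals alone 6 rose and 5 fell. Their median log2 change was -0.17, beside 0.01 over all genes tested. Peg10, a gene derived from a retrotransposon, was at 52.4 and 48.4 CPM in Ad-GFP replicates 2 and 3 and at 16.02, 15.8 and 15.5 CPM in the libraries labelled Ad-RNF128 (log2 change -1.83 ± 0.08, edgeR adjusted p = 4.35e-11). Its neighbour Sgce, which encodes a sarcoglycan and shares its start region with Peg10, moved the other way, from 47.7 and 47.6 CPM to 72.1, 72.1 and 68.0 CPM (0.42 ± 0.07, edgeR adjusted p = 0.00012). Snrpn, which encodes a spliceosome protein, fell (-1.01 ± 0.06, edgeR adjusted p = 3.21e-09), as did Peg12 (-0.66 ± 0.07) and the amino acid transporter gene Slc38a4 (-0.64 ± 0.07). Among the genes that rose, the placental growth inhibitor gene Phlda2 had the largest log2 change (2.51 ± 0.51, edgeR adjusted p = 0.00069). It rests on few reads, 7 in Ad-GFP replicate 2 and 2 in Ad-GFP replicate 3, and was 3.73 without the former library and 1.79 without the latter. Blcap rose by 0.35 ± 0.07 and the phosphatase gene Inpp5f by 0.26 ± 0.07 on the log2 scale. Meg3, the noncoding partner of Dlk1, is not analysed here.

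With Ad-GFP replicate 1 included, 0 of the 24 passed with edgeR and 0 with DESeq2, and 1 had an unadjusted p under 0.05. That library held Phlda2 at 3.61 CPM and Blcap at 80.6 CPM, above every other library, and the log2 changes of both turned to -1.08 and -0.65. It held Peg10 at 0.489 CPM and Sgce at 5.20 CPM, below every other library, and their log2 changes were -1.27 ± 1.14 and 0.82 ± 0.58.

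**Figure D5:**
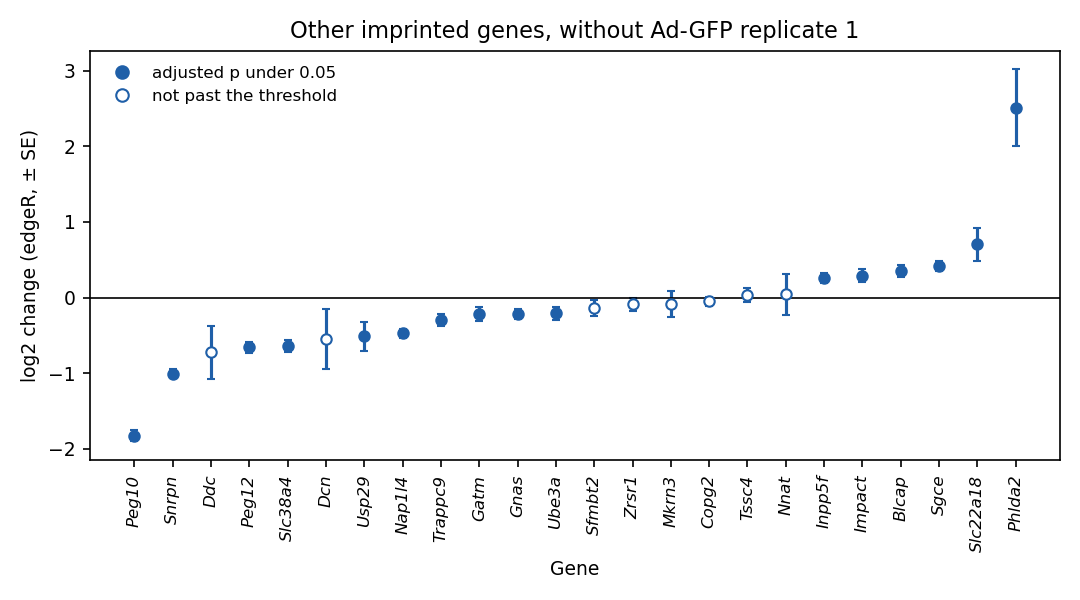
edgeR log2 changes (± SE) of the 24 other imprinted genes tested without Ad-GFP replicate 1, ordered by size. Filled points passed an adjusted p of 0.05, and they run from Peg10 at -1.83 to Phlda2 at 2.51 with 10 below and 6 above 0.

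The genes beside the members in the RefSeq gene order (GRCr8) went both ways. The members were chosen with their falls in view, so nothing is read from how far neighbours fell relative to them. Up to 3 measured genes on each side of every member gave 40 neighbours, chosen by position after the members' values were known, and 26 were tested without Ad-GFP replicate 1. Some of them also stand in the list of other imprinted genes. Of the 26, 4 rose, 11 fell and 11 did not pass, with a median log2 change of -0.22. Over all genes 56.9% were called, 28.0% lower and 28.9% higher. The total called was thus close to that of all genes, but the neighbours leaned to falls, which was not tested. A fall of at least 2-fold was seen in 1 of the 26, Prr33 near H19 (-1.02 ± 0.12), close to the share of 3.79% over all genes. Mrpl23, next to H19, had 0.07 ± 0.09, and Tssc4, beyond Igf2, 0.04 ± 0.09, and neither passed. Copg2, which overlaps the Mest region in mice, had -0.05 ± 0.06 and did not pass. In the Peg3 cluster Usp29 fell by 0.51 ± 0.19 on the log2 scale. Beside Cdkn1c, Slc22a18 rose (0.71 ± 0.22) and Nap1l4 fell (-0.47 ± 0.06), and next to Grb10 the actin nucleator gene Cobl fell (-0.90 ± 0.07). With Ad-GFP replicate 1 included none of these passed with edgeR, and the log2 changes were -1.34 ± 1.02 for Slc22a18, 0.02 ± 1.14 for Usp29, -0.01 ± 0.70 for Nap1l4, -0.37 ± 0.90 for Cobl and -0.47 ± 1.06 for Prr33. Mrpl23 and Tssc4, at 157 and 102 CPM in that library and under 40 CPM in the others, then had -2.10 ± 1.07 and -2.18 ± 1.09, and Copg2 0.49 ± 0.97.

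The signalling receptors of IGF2 changed little between Ad-GFP replicates 2 and 3 and the libraries labelled Ad-RNF128. Ad-GFP replicate 1 held Igf1r at 6.36 CPM and Insr at 2.87 CPM, below every other library. With it included the log2 change of Insr was 0.65 ± 0.66 and did not pass. Igf1r was at 43.4 and 42.2 CPM in Ad-GFP replicates 2 and 3 and at 40.1, 39.9 and 41.0 CPM in the libraries labelled Ad-RNF128, with a log2 change of -0.24 ± 0.07 (edgeR adjusted p = 0.00882). With library totals alone this was -0.09 (edgeR adjusted p = 0.294), and it turned to 0.11 with Ad-GFP replicate 1 included. Insr was at 36.9 and 33.7 CPM and at 47.4, 43.5 and 45.4 CPM, a rise of 0.21 ± 0.07 (edgeR adjusted p = 0.0258) that did not pass with DESeq2 (adjusted p = 0.07), without Ad-GFP replicate 3 (edgeR adjusted p = 0.138) or without Ad-RNF128 replicate 1 (edgeR adjusted p = 0.0737).

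Of 18 partners of IGF2 (receptors, adaptors, binding and RNA-binding proteins), 12 were tested, and 4 rose and 5 fell, where 56.9% of all genes were called, with a median log2 change of -0.15. With library totals alone 5 rose and 2 fell, and with DESeq2 2 rose and 4 fell. Igfbp5, which encodes a binding protein that holds IGFs in the matrix, fell most, from 85.0 and 92.0 CPM to 27.8, 22.9 and 26.6 CPM (-1.94 ± 0.09, edgeR adjusted p = 9.55e-11). Igfbp7 fell by 0.66 ± 0.07 and the adaptor gene Irs2 by 0.32 ± 0.07 on the log2 scale. Igf2bp2, whose product binds IGF2 mRNA, rose by 0.31 ± 0.08, and Stc2, an inhibitor of the protease that frees IGFs, by 0.34 ± 0.10. The Stc2 call ended without Ad-GFP replicate 2 (edgeR adjusted p = 0.088), and that of Irs2 with library totals alone (edgeR adjusted p = 0.0509). With Ad-GFP replicate 1 included none of the 12 passed with edgeR or with DESeq2 (1 had an unadjusted p under 0.05), and Stc2 and Irs2 had log2 changes of -0.70 and 0.0041. That library held Igfbp5 at 0.978 CPM, below every other library. Igf1, the sister ligand, was at most 0.469 CPM in any library.

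Genes that maintain imprints were modestly lower without Ad-GFP replicate 1. This list was chosen with earlier results of these data known, so its counts are a description. Of 14 listed, 13 were tested without Ad-GFP replicate 1, and 10 fell, against 28.0% of all genes, and 0 rose (0 also with an unadjusted p under 0.05, and 0 with DESeq2, but 1 rose and 7 fell with library totals alone), with a median log2 change of -0.40 beside 0.01 over all genes. Ctcf, which encodes the insulator protein, was at 119 and 106 CPM in Ad-GFP replicates 2 and 3 and at 80.1, 78.6 and 80.1 CPM in the libraries labelled Ad-RNF128 (-0.65 ± 0.07, edgeR adjusted p = 8.79e-07). Smchd1, which encodes a chromatin protein needed for silencing, fell by 0.76 ± 0.08 on the log2 scale (edgeR adjusted p = 1.73e-06). Over all 6 libraries 0 of the 13 passed with edgeR or DESeq2, 0 had an unadjusted p under 0.05, and the median was 0.15. Ad-GFP replicate 1 held Ctcf at 3.79 CPM, below every other library.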

How the data were processed

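The authors deposited 1 table of read counts per gene for each of 6 libraries, made with HISAT2 (no version listed) and HTSeq 0.13.5 on rat build mRatBN7.2, per the submitters' processing notes. The Ad-GFP replicate 1 column was handled as estimated counts, because 1 deposited value in it (344.5) is not whole, and was rounded. No 2 libraries of a group agreed within sampling noise (chi-square per degree of freedom of at least 4.33).

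The members and the gene lists were chosen with earlier results of these data known. Whole tables were fitted with edgeR 4.0.16 in R 4.3.3 (filterByExpr, TMM scaling, quasi-likelihood F-test, Benjamini-Hochberg adjustment over all genes tested, threshold 0.05), over all 6 libraries and without Ad-GFP replicate 1, where the spread is pooled over both groups. The SE of a log2 change was derived from the change and its F statistic. The fits were also run on simulated data in which no library stood apart as Ad-GFP replicate 1 does. That run therefore says nothing of the effect of this library. Counting intervals are exact Poisson at 95% and cover counting error only.

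Named genes were all members, then the 4, 3 and 2 genes with the smallest p in each direction among other imprinted genes, IGF2 partners and imprint maintenance genes, plus Meg3, Igf1r and Insr, and the 3 genes most like Igf2 and H19. Neighbours were added by position. Alternatives tried were scaling by library totals or by median-of-ratios size factors, no low-count filter, DESeq2 1.42.0, each library left out and a replicate block. Sequences came from RefSeq tables of build GRCr8, and none of their coordinates was joined to the counts.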

Additional observations from a re-analysis of the deposited data

How the results depend on the processing

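Over all 6 libraries the number of members called was 0 with edgeR, 2 with DESeq2, and from 0 to 7 when 1 library was left out, with 7 only without Ad-GFP replicate 1. For the other imprinted genes the range over left-out libraries was 0 to 16. Over all genes, edgeR called 0 over 6 libraries, library totals alone gave 8 higher and 0 lower, and DESeq2 gave 244 higher and 142 lower. Without Ad-GFP replicate 1, 50.8% of calls were higher, and 69.0% with library totals alone, where the median log2 change of all genes was 0.17 in place of 0.01. In that comparison the total called in each list of non-members stayed within 1.5 times, but not each direction: with library totals alone other imprinted genes that fell went from 10 to 5 and IGF2 partners that fell from 5 to 2, and with DESeq2 partners that rose went from 4 to 2. The members' calls there were part of their choice and show nothing of stability.

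Over all 6 libraries the sign of Igf2r turned with library totals alone (0.013), with the replicate block (0.38), and without Ad-GFP replicate 2 (0.12) or replicate 3 (0.25). That of Peg3 turned with the replicate block (0.48) and without Ad-GFP replicate 2 (0.074) or replicate 3 (0.0085), and was -0.94 without Ad-GFP replicate 1. Adding Ad-GFP replicate 1, an alternative chosen after seeing the data, turned Phlda2 (-1.08), Blcap (-0.65), Stc2 (-0.70), Irs2 (0.0041) and Igf1r (0.11). The cause was not tested. No label says whether equal replicate numbers pair the libraries, and their deviations correlated at -0.274, 0.0472 and -0.242. These values cannot decide it. Ad-GFP replicates 2 and 3 gave nearly the same correlations as each other (0.282 and 0.263 with Ad-RNF128 replicate 1), opposite in sign to Ad-GFP replicate 1. With the replicate block 0 members were called over 6 libraries and 7 without Ad-GFP replicate 1. Cdkn1c, with 0 to 3 counts per library, had too few reads to show a change in either direction.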
